A study of Mus musculus with 4 samples.

Results

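Long intergenic noncoding RNAs (lincRNAs) that were well measured in the embryonic mouse brain were compared between Gsdmd conditional knockout mice and controls. Members were all rows annotated as lincRNA that reached a raw count of 150 in at least 1 of the 4 libraries, without rows on chromosomes X and Y and without the H19, Meg3, Rian, Mirg, Kcnq1ot1, Airn and Six3os1 rows. This gave 81 lincRNAs of 2024 lincRNA rows and of 26955 genes in all. A further 7 lincRNAs passed the count but were left out, 4 on X or Y and 3 by name. Members were thus chosen by their raw counts, the same counts that are compared here, so a lincRNA that reached 150 in 1 group alone entered because that group was high.

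The cKO libraries (replicates 2 and 6) came from Gsdmd fl/fl;Nestin-Cre embryos, in which Cre under the Nestin promoter deletes floxed Gsdmd in neural progenitors and hence in the neurons and glia they form. The control libraries (replicates 4 and 5) are labelled WT, whereas the methods of the study name Gsdmd fl/fl mice, which carry the floxed alleles without Cre. All mice were C57BL/6 at E13 by the labels and E13.5 by the methods, and the tissue is given as brain by the labels and cerebral cortex by the methods. The series text speaks of triplicates, and this comparison rests on 2 libraries per group. Whether they came from separate embryos is not stated in the labels or the methods, so a p-value here reflects the spread of these libraries alone. By the sex profiles given below, WT 4 and WT 5 did not come from the same embryo. The spread of the cKO libraries, which share a male profile, may be technical. Pairs of values are given in the order cKO 2 and cKO 6, then WT 4 and WT 5. Gsdmd itself had 13 and 7 counts in cKO and 54 and 43 in WT (log2 fold change -2.34, adjusted p = 0.0846 from edgeR).

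LincRNAs are transcribed from their own units between protein-coding genes, and most are spliced and polyadenylated like mRNAs. Some, such as Malat1 and Miat, stay in the nucleus as structural or regulatory RNAs. Others are precursors whose introns or exons are cut out as microRNAs (miRNAs) or small nucleolar RNAs, and many start next to a coding gene and are transcribed away from it. In the embryonic cortex, miR-9 and miR-124 made from such hosts are known regulators of neural progenitors and of neuronal differentiation.

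The sequences below come from RefSeq on GRCm38.p6. They show the miRNAs that lie in member lincRNAs on the same strand, since these are the products for which the hosts are known. The miRNAs were not measured here. Capitals mark the seed, bases 2 to 8, which pairs with targets. The same mature miR-9 was encoded in 3 members, in introns of Gm3764 (Mir9-1, chr3:88215613-88215635, + strand) and Mir9-3hg (Mir9-3, chr7:79505279-79505301, + strand) and in an exon of C130071C03Rik (Mir9-2, chr13:83738821-83738843, + strand).
miR-9-5p: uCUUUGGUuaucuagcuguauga
miR-9-3p: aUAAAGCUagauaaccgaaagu
The let-7 miRNAs of 6720427I07Rik shared 1 seed. Only let-7d lay inside the span given for this lincRNA, with let-7f-1 starting 7 bp and let-7a-1 357 bp beyond it, inside the longer GENCODE model.
let-7d-5p: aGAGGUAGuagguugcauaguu
let-7f-5p: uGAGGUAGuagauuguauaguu
let-7a-5p: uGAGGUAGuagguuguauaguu
Mir17hg carried 6 miRNAs in its exons, of which the miR-17 and miR-20a guide strands share a seed, miR-18a has a seed of its own, and miR-19a and miR-19b share another.
miR-17-5p: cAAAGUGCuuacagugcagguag
miR-20a-5p: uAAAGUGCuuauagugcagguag
miR-18a-5p: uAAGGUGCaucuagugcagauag
miR-19a-3p: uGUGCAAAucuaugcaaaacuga
miR-19b-3p: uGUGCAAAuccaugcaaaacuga
miR-92a-3p: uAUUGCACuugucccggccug
RMST_1 carried Mir135a-2 and Mir1251 in introns, Mir670hg carried Mir129-2 in an intron and Mir670 in an exon, and C78859 carried Mir138-2.
miR-135a-5p: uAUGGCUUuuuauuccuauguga
miR-129-5p: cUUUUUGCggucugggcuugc
miR-138-5p: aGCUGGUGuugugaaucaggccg

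Promoter windows, 250 bases before to 50 after each annotated start, were found in RefSeq for 43 of the 81 members. The windows of the 3 lincRNAs with the smallest p between the groups are shown, with CpG dinucleotides in capitals, because they differ widely in CpG content. D930028M14Rik (chr7:25154819-25155118, + strand) had 1 CpG and 55.0% G and C, Gm16576 (chr15:79742448-79742747, + strand) had 38 CpGs and 71.7%, and E330013P04Rik (chr19:60144425-60144724, + strand) had 11 CpGs and 48.7%.
D930028M14Rik: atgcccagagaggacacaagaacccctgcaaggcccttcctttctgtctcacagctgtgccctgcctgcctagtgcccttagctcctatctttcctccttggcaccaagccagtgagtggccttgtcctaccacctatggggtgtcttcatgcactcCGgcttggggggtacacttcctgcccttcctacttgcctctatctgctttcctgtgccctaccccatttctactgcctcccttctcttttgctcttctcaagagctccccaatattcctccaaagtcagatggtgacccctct
Gm16576: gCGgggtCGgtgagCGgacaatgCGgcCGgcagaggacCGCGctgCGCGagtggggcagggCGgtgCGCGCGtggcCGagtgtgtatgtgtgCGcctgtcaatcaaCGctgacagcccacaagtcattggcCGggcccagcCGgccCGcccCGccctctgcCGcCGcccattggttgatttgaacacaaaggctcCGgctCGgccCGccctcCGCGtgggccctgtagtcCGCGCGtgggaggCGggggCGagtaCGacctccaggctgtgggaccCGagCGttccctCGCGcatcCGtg
E330013P04Rik: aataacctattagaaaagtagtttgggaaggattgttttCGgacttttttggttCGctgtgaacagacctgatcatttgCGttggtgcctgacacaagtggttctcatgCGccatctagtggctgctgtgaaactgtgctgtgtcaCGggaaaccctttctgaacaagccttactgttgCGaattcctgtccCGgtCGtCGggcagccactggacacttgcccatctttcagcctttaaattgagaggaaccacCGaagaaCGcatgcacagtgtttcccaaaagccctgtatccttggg
Taking the window richest in CpG of each member, the median was 14 CpGs over the 43 lincRNAs and 7 over all 32851 RefSeq windows. The RefSeq median took every window, not the richest of each gene. The 2 medians are thus not alike, and no CpG richness of the members can be read from them. The octamer ATGCAAAT, the motif bound by POU factors, was absent on both strands from the 3 windows and was present in 2 of the 43 and in 1.74% of all windows. TATAAA was also absent from the 3 windows, and was present in 7 of the 43 and in 13.62% of all windows. For both motifs the 43 were counted by lincRNA and the background by window, so the shares are not in the same unit.

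The 4 libraries held 17863433 and 18205945 counts in cKO and 17377394 and 16962553 in WT, of which the 81 lincRNAs took 0.59% and 0.574% in cKO and 0.594% and 0.542% in WT. Replicates of both groups differed beyond sampling noise (chi-square per gene 13.3 in cKO and 14.5 in WT). By sex-linked genes WT 5 had a female profile, and the remaining 3 libraries had male profiles. Sex was thus not balanced between the groups, and its part in the lincRNA values was not tested. Of the regional marker lists, that of the dorsal telencephalon (14 of 14 genes tested, 0 called) had the highest sum in every library, 3441 and 4012 CPM in cKO and 3338 and 3105 CPM in WT. All 14 had a log2 fold change above 0, and 4 had an unadjusted p under 0.05. Ventral telencephalic markers were also present and summed to 1035 and 685 CPM in cKO and 1375 and 1571 CPM in WT, with all 16 below 0 on the log2 fold change scale, 14 at an unadjusted p under 0.05 and 0 called. Diencephalic and hypothalamic markers summed to 85.7 and 80.4 CPM in cKO and 127 and 155 CPM in WT (5 of 12 called, Bsx, Hmx2, Hmx3, Onecut3 and Olig2, all lower), and hem and choroid plexus markers to 6.17 and 14.8 CPM in cKO and 24.1 and 180 CPM in WT (1 of 10 called, Otx2, lower). Erythroid markers summed to 530 and 570 CPM in cKO and 693 and 1040 CPM in WT (0 of 10 called, all 10 below 0 on the log2 fold change scale and 8 at an unadjusted p under 0.05), microglial and macrophage markers ranged from 31.0 to 40.2 CPM (0 of 10), endothelial from 84.0 to 97.4 CPM (0 of 6) and mesenchymal from 12.3 to 19.9 CPM (0 of 5). Beside these counts, 0.202% of all genes tested were called and 7.11% had an unadjusted p under 0.05. The part of these tissue differences in the lincRNA values below was not tested, and in bulk RNA fewer cells of a type and less RNA per cell cannot be told apart.

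Levels are CPM (counts scaled to a common library size, by TMM), and levels compared between lincRNAs are CPM per kb of exon in GENCODE. Mean levels of the 81 lincRNAs ran from 4.32 to 1035 CPM with a median of 16.9 CPM, and the 10 highest held 71.0% of all their counts. Per kb, the most abundant was 6330403K07Rik (211 CPM per kb), which GENCODE vM21 annotates as protein-coding, followed by Gm3764 (150), Miat (111), Gm42047 (78.1), Mir124a-1hg (60.3), C130071C03Rik (56.2), Gm17750 (53.7) and Mir9-3hg (51.0). Hosts of miR-9 and miR-124 thus made up 4 of the 8 highest. D030068K23Rik was lowest, at 0.931 CPM per kb. Exons summed to 430 to 16543 bp per lincRNA (median 3510 bp), and 16 had a single exon block. All 81 were found in GENCODE vM21 by identifier, 76 with the same span and 76 still as lincRNA. The others were Gm16576 and B230354K17Rik (bidirectional promoter lncRNA), 9530082P21Rik (antisense), 4833418N02Rik (processed transcript) and 6330403K07Rik.

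The threshold was reached in both groups by 71 members, in cKO alone by 8 and in WT alone by 2, and in all 4 libraries by 63. Just inside it were Gm15706 (140 and 149 counts in cKO, 109 and 153 in WT), 2700038G22Rik (154 and 153, 123 and 90) and D030068K23Rik (154 and 125, 108 and 108). Just outside were 2210008F06Rik (133 and 149, 111 and 124), 2700033N17Rik (127 and 131, 126 and 148) and 1700096K18Rik (132 and 134, 128 and 146). All 81 passed the filter on low counts of the test.

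Between cKO and WT, 1 of the 81 lincRNAs was called by edgeR's quasi-likelihood test at a Benjamini-Hochberg adjusted p under 0.05, beside 0.202% of all 15804 genes tested (32 genes). That lincRNA, D930028M14Rik, was lower in cKO, as were 0.196% of all genes, and none was higher, where 0.00633% of all genes were. D930028M14Rik had reached the member threshold in WT alone, which favours lower values in cKO. Among the other 80 the smallest adjusted p was 0.439, and log2 fold changes ran from -0.54 to 1.80. The median log2 fold change of the 81 was 0.03, against -0.01 over all genes, and 61 lay within 0.25 of 0. A log2 difference of more than 0.5 was seen in 10 of the 81 (12.3%), beside 1588 of all 15804 genes (10.05%). Of these 10 lincRNAs, 3 had lower and 7 higher values in cKO, and 5 of the 7 had reached the member threshold in cKO alone, which favours higher values there. At an unadjusted p under 0.05 there were 12 of 81 (14.8%; 8 higher and 4 lower), beside 7.11% of all genes. These were 6 of the 71 that reached the threshold in both groups (8.45%), 5 of the 8 that reached it in cKO alone and 1 of the 2 that reached it in WT alone, so the share of the 71 was near that of all genes. Both cKO libraries lay beyond both WT libraries in 32 of 81 (39.5%; 17 above and 15 below), beside 37.2% of all genes. The median standard error of a log2 fold change was 0.16 in these lincRNAs, so small differences could not be told from the spread of 2 libraries per group.

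**Figure D1:**
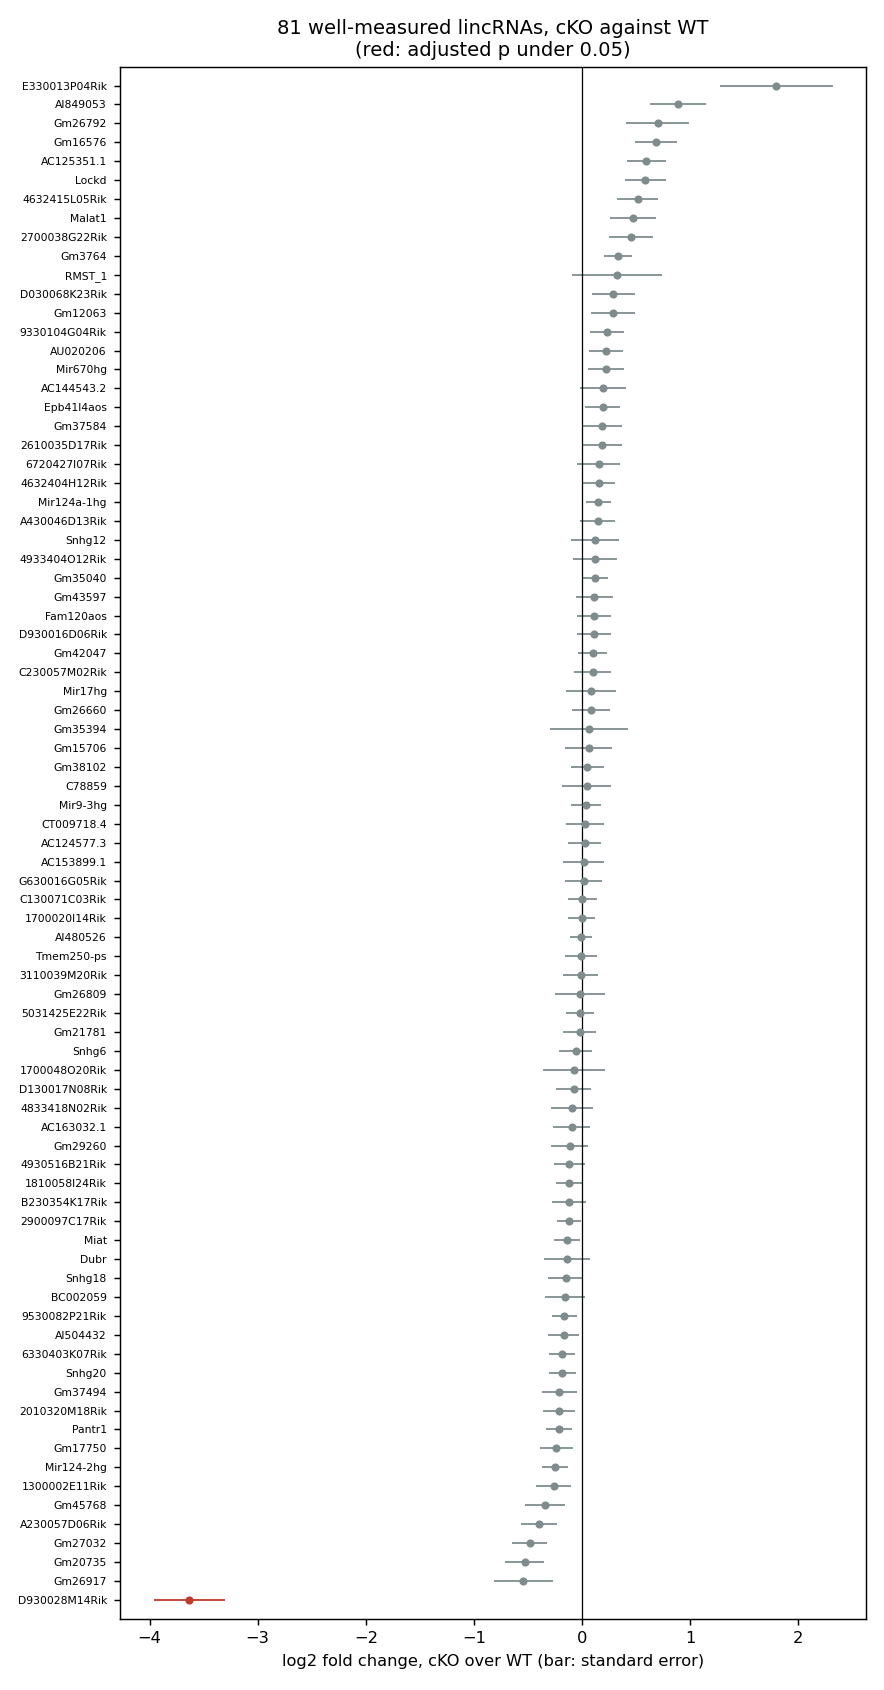
Log2 fold change of cKO over WT (horizontal axis, bars are standard errors) for each of the 81 lincRNAs, ordered by size, n = 2 libraries per group. D930028M14Rik, in red, lies at -3.63 and is the only one called, and 61 of the 81 lie within 0.25 of 0.

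D930028M14Rik (chr7:25152457-25156627, + strand, GRCm38; ENSMUSG00000074274) lies on the opposite strand within the span of Pou2f2, a POU-domain transcription factor also called Oct-2, and shares 0 exon bases with it. It had 12 and 11 counts in cKO and 110 and 163 in WT, or 0.661 and 0.613 CPM in cKO and 6.31 and 9.70 CPM in WT. Both cKO libraries were far below both WT libraries. The difference was 12.4-fold (log2 fold change -3.63 with a standard error of 0.33; edgeR adjusted p = 0.0030, n = 2 per group). It reached the member threshold in WT 5 alone, so higher values in WT were part of how it was chosen. Its fold change and p are therefore given as a description, as for members that reached the threshold in cKO alone. It was at a modest level even in WT 5, with a mean over all libraries of 4.03 CPM per kb. Without WT 5 the call was lost (log2 fold change -3.28, adjusted p = 0.769 from edgeR, a fit in which no gene of all those tested was called), and with no filter on low counts it was lost as well (adjusted p = 0.0577 from edgeR, 0.0297% of all genes called). It was called by DESeq2 (0.513% of all genes called), by limma-voom (0.171%), by edgeR's likelihood ratio test (0.936%), and without X and Y rows (0.21%). Pou2f2 itself had 499 and 377 counts in cKO and 576 and 600 in WT (log2 fold change -0.50, standard error 0.17, adjusted p = 0.596 from edgeR). The lincRNA and the gene that surrounds it were thus both lower in both cKO libraries, and only the lincRNA was called. The counting strand is not given, so reads from Pou2f2 introns that fall in this row cannot be told apart from its own. The RefSeq start of D930028M14Rik, from which the printed window was taken, lies 2612 bp inside the span in the files.

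**Figure D2:**
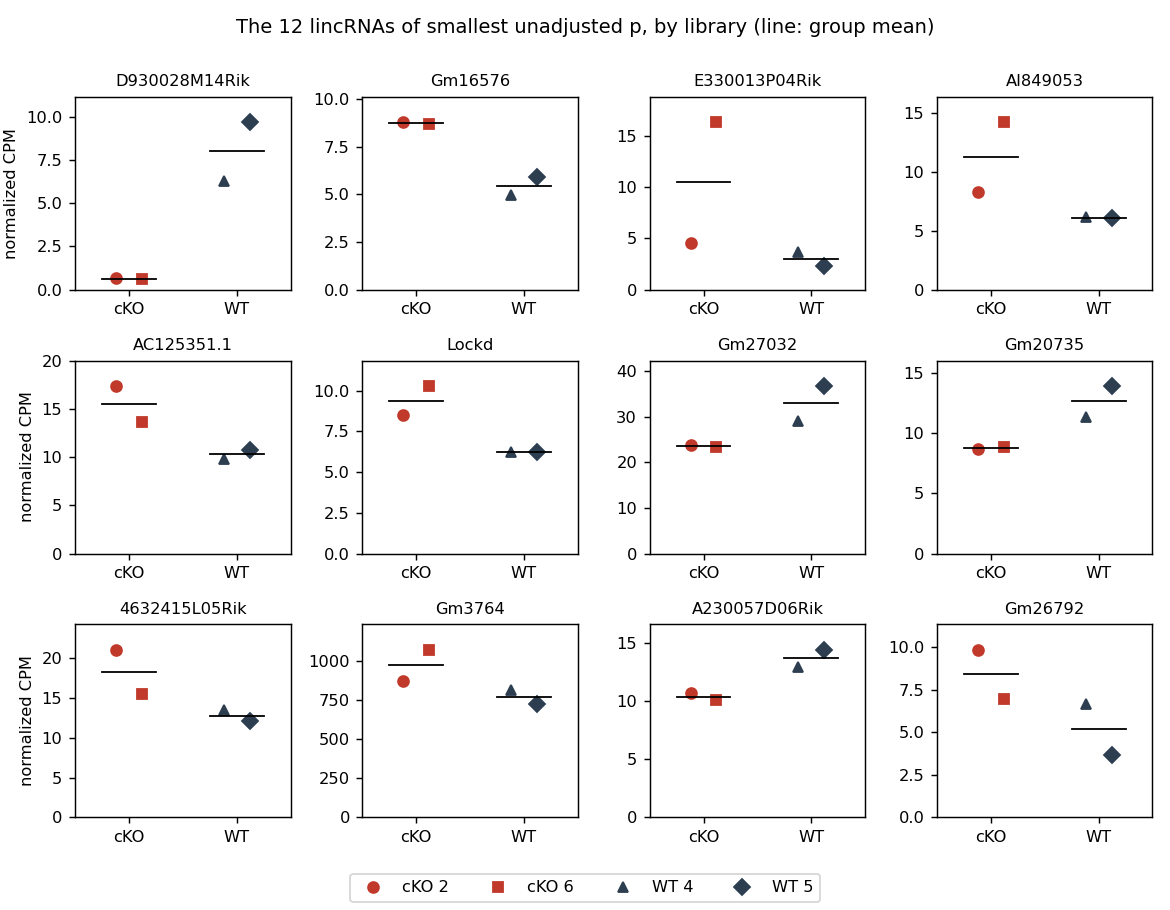
Normalized CPM (vertical axes, each from 0) in the 4 libraries for the 12 lincRNAs with the smallest unadjusted p, with group means as lines. D930028M14Rik lies below 1 CPM in both cKO libraries, whereas E330013P04Rik (4.57 and 16.3 CPM) and AI849053 (8.32 and 14.3 CPM) differ strongly between the cKO libraries.

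The next lincRNAs by p did not pass the test, and most were low in abundance. Gm16576, Lockd, 2700038G22Rik, E330013P04Rik, AI849053 and Gm26792 reached the member threshold in cKO alone, so higher values in cKO were part of how they were chosen and their groups are given as a description. Gm16576 (chr15:79742698-79757394) starts 162 bp from Sun2, which encodes a nuclear envelope protein of the LINC complex, and is transcribed away from it. Gm16576 had 8.81 and 8.70 CPM in cKO and 4.99 and 5.89 CPM in WT (log2 fold change 0.69, standard error 0.19, adjusted p = 0.439 from edgeR). Sun2 had a log2 fold change of 0.04. Lockd, a lincRNA named for its place downstream of the cell cycle inhibitor gene Cdkn1b (gap 3579 bp, same strand), had 8.48 and 10.3 CPM in cKO and 6.25 in each WT library (log2 fold change 0.59, adjusted p = 0.557 from edgeR). Cdkn1b itself had a log2 fold change of -0.06.

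AC125351.1 (chr12:81717830-81720052) lies 958 bp downstream of Map3k9, a mixed lineage kinase, on the same strand. It had 17.4 and 13.7 CPM in cKO and 9.81 and 10.8 CPM in WT (log2 fold change 0.59, standard error 0.18, adjusted p = 0.497 from edgeR). Map3k9 had 620 and 555 counts in cKO and 375 and 361 in WT (log2 fold change 0.60, adjusted p = 0.321 from edgeR). The values of both rows were higher in both cKO libraries, and neither was called. 4632415L05Rik, 58070 bp upstream of the ceruloplasmin gene Cp, had 21.1 and 15.6 CPM in cKO and 13.5 and 12.1 CPM in WT, a log2 fold change of 0.52 that was not called. 2700038G22Rik, 6436 bp from the mitochondrial import gene Tomm7, had 8.48 and 8.53 CPM in cKO and 7.05 and 5.36 CPM in WT and was not called.

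Of lincRNAs with lower values in cKO, Gm27032 (chr2:180894105-180895220) had 23.8 and 23.4 CPM in cKO and 29.1 and 36.8 CPM in WT (log2 fold change -0.48, adjusted p = 0.595 from edgeR). Its exons share 3 bp with the Mir124a-3 row on the same strand, which had 3 counts in WT 5 and 0 in the other libraries. Gm20735, 1846 bp upstream of Mvd, which encodes an enzyme of the mevalonate pathway, had 8.65 and 8.86 CPM in cKO and 11.4 and 13.9 CPM in WT (log2 fold change -0.53, adjusted p = 0.599 from edgeR). A230057D06Rik, whose nearest coding gene is the imprinted gene Ndn at 417879 bp, had 10.7 and 10.1 CPM in cKO and 12.96 and 14.5 CPM in WT and was not called (log2 fold change -0.40). In each of these the groups did not overlap, and the WT libraries lay further apart than the cKO libraries.

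Several lincRNAs differed between replicates as much as between groups. E330013P04Rik (chr19:60144675-60162591) had 4.57 and 16.3 CPM in cKO and 3.67 and 2.32 CPM in WT. It was the highest fold change of the 81 (log2 1.80, standard error 0.52, adjusted p = 0.461 from edgeR), but cKO 6 was 3.57 times cKO 2, and without cKO 6 the log2 fold change was 0.62. AI849053 (chr3:88199102-88204595) had 8.32 and 14.3 CPM in cKO and 6.14 and 6.07 CPM in WT (log2 fold change 0.89, adjusted p = 0.463 from edgeR, and 0.46 on the log2 scale without cKO 6). It shares 825 exon bp with AW047730 on the opposite strand, which had 13.99 and 20.9 CPM in cKO and 12.4 and 9.94 CPM in WT. Whether counting used strand is not stated, so reads of the 2 rows cannot be told apart. Gm26792 had 9.86 and 6.97 CPM in cKO and 6.65 and 3.69 CPM in WT (log2 fold change 0.70, adjusted p = 0.687 from edgeR) and shares 229 exon bp with Cuedc2 on the opposite strand. Of all 81 lincRNAs, 18 share exon bases and 30 share span with another row.

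RMST_1 (chr10:92071037-92165170), the mouse row named after RMST, a lincRNA linked to neurogenesis in human cells, turned with the library left out. It had 5.62 and 16.6 CPM in cKO and 10.4 and 7.32 CPM in WT, so that the WT libraries fell between the cKO libraries. Its log2 fold change was 0.33 (standard error 0.42, adjusted p = 0.913 from edgeR), 0.91 without cKO 2 (called, adjusted p = 0.0087 from edgeR) and -0.64 without cKO 6. The Mir135a-2 row in its intron had 16 and 66 counts in cKO and 16 in each WT library, and the Gm27544 row had 46 and 94 in cKO and 63 and 56 in WT. These rows were also highest in cKO 6. Gm35394, singled out after its values were seen, had 6.23 and 14.7 CPM in cKO and 12.04 and 7.86 CPM in WT.

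**Figure D3:**
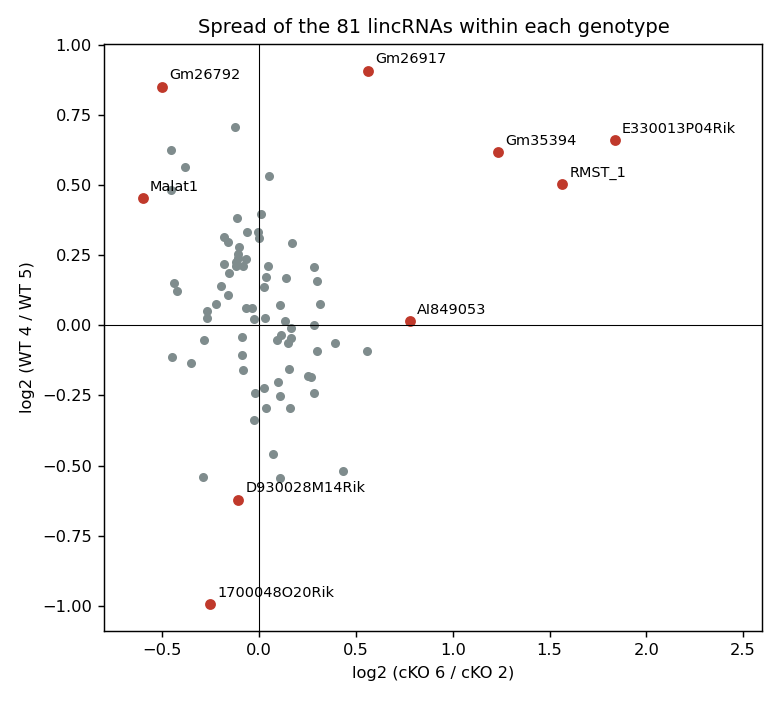
Ratio of the 2 cKO libraries (horizontal axis, log2 of cKO 6 over cKO 2) and of the 2 WT libraries (vertical axis, log2 of WT 4 over WT 5) for the 81 lincRNAs, with lincRNAs of wide spread in red. E330013P04Rik, RMST_1 and Gm35394 are more than 2-fold higher in cKO 6 than in cKO 2, and no lincRNA differs more than 2-fold between the WT libraries.

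The cKO libraries differed more than 2-fold in 3 lincRNAs, E330013P04Rik, RMST_1 (2.96-fold) and Gm35394 (2.36-fold), all higher in cKO 6, and the WT libraries in none. More than 1.5-fold differences were seen in 5 lincRNAs between the cKO libraries and in 8 between the WT libraries, the widest in 1700048O20Rik (1.99-fold higher in WT 5) and Gm26917 (1.88-fold higher in WT 4). The median log2 range within a group was 0.16 in cKO and 0.21 in WT, against 0.18 and 0.19 over all genes. The lincRNAs called changed with the library left out, as did the count of calls over all genes, from 0 to 292. Without cKO 2 there were 4 calls (AI849053, D930028M14Rik, E330013P04Rik and RMST_1), beside 1.58% of all genes. Without cKO 6 there were 3 (D930028M14Rik, Gm26917 and Malat1; 0.962% of all genes), without WT 4 there were 5 (AI849053, D930028M14Rik, E330013P04Rik, Gm26792 and Malat1; 1.78%) and without WT 5 there were 0 (0% of all genes). In these fits the lone library of a group was assumed to vary like the libraries of the other group.

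Among lincRNAs of known role, 9 of 46 listed were members, 0 were called (0.202% of all genes) and the median log2 fold change was 0.00. Malat1 (chr19:5795690-5802672), an abundant RNA of nuclear speckles, had 298 and 197 CPM in cKO and 206 and 150 CPM in WT. Its groups overlapped, and the log2 fold change of 0.48 (standard error 0.21) had an adjusted p of 0.704 from edgeR, ranging from 0.14 without cKO 2 to 0.76 without cKO 6. Miat (chr5:112213228-112229395), also called gomafu, a nuclear RNA of neurons and the member with the most counts, had 1075 and 894 CPM in cKO and 1103 and 1066 CPM in WT. Its log2 fold change was -0.14 (standard error 0.12, adjusted p = 0.866 from edgeR), and it was 0.00 without cKO 6. Pantr1, which starts 926 bp from the cortical transcription factor gene Pou3f3 and runs away from it, had 149 and 130 CPM in cKO and 169 and 154 CPM in WT (log2 fold change -0.22, adjusted p = 0.769 from edgeR). Pou3f3 had a log2 fold change of -0.12. 2900097C17Rik had 217 and 213 CPM in cKO and 236 and 232 CPM in WT, a log2 fold change of -0.12 with replicates that nearly coincided, and was not called (adjusted p = 0.880 from edgeR). 1700020I14Rik had 133 and 123 CPM in cKO and 141 and 116 CPM in WT, with the WT libraries on both sides of the cKO libraries.

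Members that hold a miRNA on the same strand or are named as a host numbered 11. Of these 0 were called, beside 0.202% of all genes, and 1 had an unadjusted p under 0.05 (Gm3764), beside 7.11%. Their median log2 fold change was 0.08, with a range from -0.24 to 0.34 and a smallest adjusted p of 0.651 from edgeR. With Gm27032, which touches Mir124a-3, there were 12 hosts, of which 0 were called and 2 had an unadjusted p under 0.05, and the range reached -0.48 with a smallest adjusted p of 0.595 from edgeR. Gm3764 (chr3:88206813-88229959), host of Mir9-1, had 875 and 1076 CPM in cKO and 815 and 730 CPM in WT. Both cKO libraries were above both WT libraries, by a log2 fold change of 0.34 (standard error 0.13). C130071C03Rik had 325 and 312 CPM in cKO and 354 and 281 CPM in WT (log2 fold change 0.00), and Mir9-3hg had 226 and 225 CPM in cKO and 245 and 195 CPM in WT (log2 fold change 0.04). In both, the WT libraries lay on both sides of the cKO libraries. Whether the 3 miR-9 hosts differ in response from one another was not tested.

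The 2 hosts named for miR-124, a miRNA of neurons, had small log2 fold changes of opposite sign. Mir124a-1hg had 314 and 295 CPM in cKO and 270 and 278 CPM in WT (log2 fold change 0.15, adjusted p = 0.842 from edgeR). Mir124-2hg had 89.9 and 79.4 CPM in cKO and 108 and 92.7 CPM in WT (log2 fold change -0.24, adjusted p = 0.747 from edgeR). Neither pair of groups overlapped and neither was called. Mir17hg, host of the proliferation-linked miR-17 cluster, had 21.8 and 15.9 CPM in cKO and 21.6 and 13.99 CPM in WT, a spread within groups that was wider than any shift between them (log2 fold change 0.08). Mir670hg had 15.4 and 14.2 CPM in cKO and 13.6 and 11.8 CPM in WT, and 6720427I07Rik, the let-7 host, had 11.7 and 8.75 CPM in cKO and 9.58 and 8.81 CPM in WT. C78859, the host of Mir138-2, had 8.92 and 7.30 CPM in cKO and 6.42 and 9.35 CPM in WT, with the cKO libraries between the WT libraries. Of 9 genes that process or load miRNAs, among them Drosha, Dgcr8, Dicer1 and the Argonaute genes, 0 were called, beside 0.202% of all genes. Their median log2 fold change was 0.14, with 7 of the 9 above 0. An unadjusted p under 0.05 from edgeR was seen in 2 of the 9, beside 7.11% of all genes. They summed to 1010 and 973 CPM in cKO and 894 and 819 CPM in WT.

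**Figure D4:**
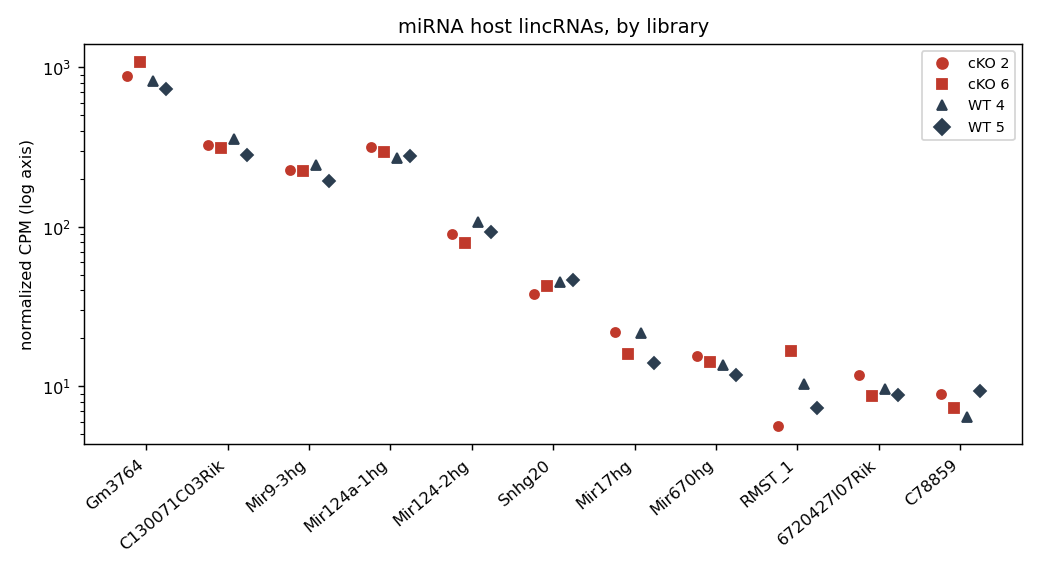
Normalized CPM (vertical log axis) of the 11 miRNA host lincRNAs in each of the 4 libraries. The 4 symbols of a host lie close together for most hosts, and RMST_1, from 5.62 CPM in cKO 2 to 16.6 CPM in cKO 6, is the most spread.

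Small nucleolar RNA hosts are spliced transcripts whose introns yield guide RNAs for rRNA modification. Of 22 rows on the list, 6 were members and 0 were called (0.202% of all genes), with a median log2 fold change of -0.10. Snhg20, which also holds Mir6516, had 37.9 and 42.4 CPM in cKO and 44.9 and 46.3 CPM in WT (log2 fold change -0.18), and Snhg18, which starts 151 bp from the semaphorin gene Sema5a, had 15.8 and 15.1 CPM in cKO and 18.5 and 15.7 CPM in WT. Snhg6 had 31.8 and 39.0 CPM in cKO and 35.7 and 38.0 CPM in WT, and Snhg12 had 13.1 and 17.7 CPM in cKO and 11.6 and 16.7 CPM in WT, so their groups overlapped. Epb41l4aos had 20.3 and 24.1 CPM in cKO and 18.2 and 20.7 CPM in WT (log2 fold change 0.19). Gm26917 (chr17:39843013-39846341) was also on this list and lies beside an annotated rRNA row, CT010467.1. Its exons in GENCODE form a single block over the whole span, and those of Snhg12 also form a single block. That Gm26917 is a spliced host thus rests on the list alone, and the median above includes it. Gm26917 had 49.0 and 72.2 CPM in cKO and 115 and 61.4 CPM in WT (log2 fold change -0.54, adjusted p = 0.756 from edgeR), and CT010467.1 had 630 and 1018 CPM in cKO and 1280 and 842 CPM in WT. Both rows were lowest in cKO 2 and highest in WT 4. Without WT 4 the log2 fold change of Gm26917 was -0.02, and without cKO 6 it was -0.83 and was called.

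Other abundant members varied little between the groups. 6330403K07Rik had 280 and 311 CPM in cKO and 317 and 353 CPM in WT (log2 fold change -0.18, standard error 0.12, adjusted p = 0.829 from edgeR), and Gm42047 had 407 and 506 CPM in cKO and 437 and 415 CPM in WT (log2 fold change 0.10). AI480526, with 78.3 and 80.0 CPM in cKO and 80.1 and 78.7 CPM in WT, had a log2 fold change of -0.01. It overlaps another member, Gm38102, on the opposite strand, which had 24.4 and 26.1 CPM in cKO and 22.7 and 26.1 CPM in WT. Of lists of partner proteins, 0 of 9 paraspeckle genes were called (median log2 fold change -0.05) and 0 of 7 genes of Polycomb repressive complex 2 (median -0.02), beside 0.202% of all genes.

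The nearest protein-coding gene of each lincRNA was taken by the gap between the spans, which gave 80 genes. The median gap was 3678 bp, 8 overlapped the lincRNA, 50 lay within 10 kb and 9 lay beyond 100 kb. Pairs on opposite strands with starts facing away from each other were the most frequent (28), followed by lincRNAs downstream (17) and upstream (15) of the gene on its strand, pairs with facing ends (13) and overlaps (8). Of the 72 neighbours tested, 0 were called by edgeR's quasi-likelihood test, beside 0.202% of all genes. An unadjusted p under 0.05 was seen in 5 (Zfhx3, Pou2f2, Ift22, Polg and Map3k9), beside 7.11% of all genes. Log2 fold changes of the 72 ran from -1.17 (Zfhx3) to 0.78 (BC005561).

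Zfhx3, a zinc finger homeobox gene that was also on the ventral telencephalic marker list, had 434 and 282 counts in cKO and 723 and 801 in WT (adjusted p = 0.0959 from edgeR). DESeq2 and the likelihood ratio test called it, as did the fits without cKO 2, cKO 6 or WT 4. Its lincRNA neighbour, D030068K23Rik, starts 113592 bp beyond the end of Zfhx3 on the same strand and had 8.48 and 6.97 CPM in cKO and 6.19 and 6.43 CPM in WT, a log2 fold change of 0.29. D030068K23Rik reached the member threshold in cKO 2 alone, so its higher values in cKO were part of how it was chosen, and no opposite movement of the pair can be read from them.

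**Figure D5:**
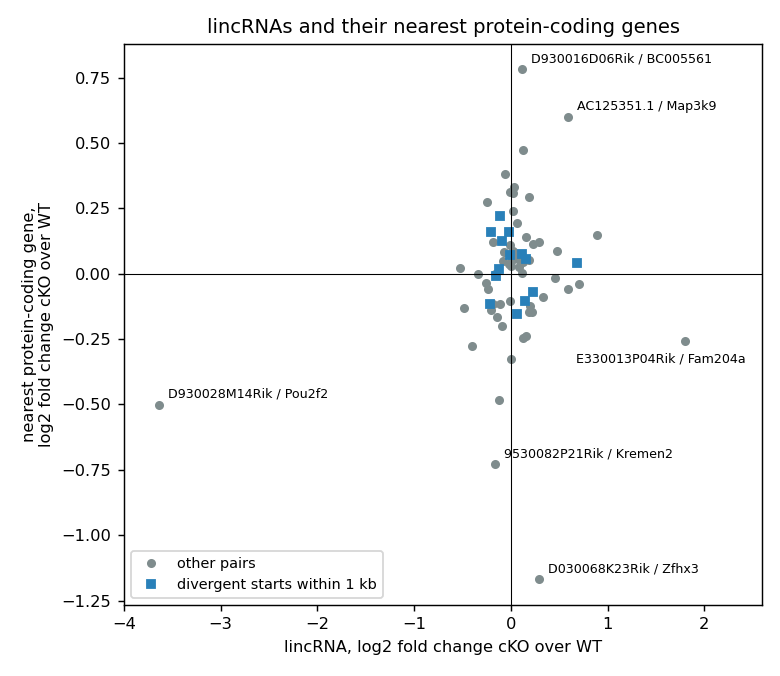
Log2 fold change of each lincRNA (horizontal axis) and of its nearest protein-coding gene (vertical axis) for the 73 pairs with both tested; blue squares are divergent pairs whose starts lie within 1 kb. The lowest point, Zfhx3, lies at -1.17 (its lincRNA D030068K23Rik, chosen through a high cKO count, lies at 0.29), and the divergent pairs all lie between -0.15 and 0.22 on the vertical axis.

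Across the 73 tested pairs, which share the 4 libraries, Pearson's r between the log2 fold change of lincRNA and neighbour was 0.19, and 0.01 without D930028M14Rik, as a description. In 14 pairs the starts lay within 1 kb and faced away from each other, as in a shared divergent promoter. The lincRNAs of these pairs had log2 fold changes from -0.22 (Pantr1) to 0.69 (Gm16576), their neighbours from -0.15 to 0.22, and 5 of the 14 pairs had the same sign. Pairs of the same sign were Gm16576 with Sun2, Pantr1 with Pou3f3, 4632404H12Rik with Ube2q1, Snhg18 with Sema5a and Fam120aos with Fam120a. Examples of opposite sign were 4930516B21Rik with Exog (gap 74 bp, -0.12 and 0.22) and 5031425E22Rik with the chromatin gene Kmt2e (gap 172 bp, -0.02 and 0.16). Members also lay near one another. Gm3764 and AI849053 start 2218 bp apart at the Mir9-1 locus, on opposite strands, and had log2 fold changes of 0.34 and 0.89, neither called. Mir9-3hg and Gm35040 lie 1640 bp apart on the same strand and had log2 fold changes of 0.04 and 0.12.

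For comparison, 1 of 381 tested lincRNAs below the threshold was called (Gm26880, lower), 1 of 352 antisense RNAs (D030055H07Rik, lower), 1 of 246 processed transcripts (Gm16551, lower) and 27 of 13586 protein-coding genes (26 lower and 1 higher). The median absolute log2 fold change was 0.15 in the 81 lincRNAs and 0.28 in lincRNAs below the threshold, whose within-group ranges were also wider (medians 0.37 in cKO and 0.42 in WT).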

How the data were processed

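RNA selection, counting strand and annotation release were each not given in the sources used here. In the processing notes of the submitters, Bowtie2 2.2.3, HTSeq 0.6.0, TopHat2 2.0.12 and the build mm9 are named, but 92.9% of 26897 rows found in GENCODE vM21 have its GRCm38 spans, so positions are given as GRCm38 and none was converted. The authors deposited 1 table of raw read counts per gene in 4 libraries. The same deposited table holds the authors' normalized mean (a signal), their fold change (as a ratio and as log2) and p-values, none of which was used. A line of the table was empty.

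Counts were analysed in R 4.3.3. Genes were filtered with filterByExpr (15804 of 26955 kept), scaled by TMM and compared with glmQLFit and glmQLFTest in edgeR 4.0.16 (prior count 0.125, common dispersion 0.0169, no covariate). Standard errors were taken as the size of the log2 fold change over the root of F. Benjamini-Hochberg adjustment ran over all tested genes, with calls at an adjusted p under 0.05. Depth was 16962553 to 18205945 counts per library. An exact permutation test of 2 against 2 libraries cannot go below p = 0.333 and was not used. Scripts were tested on simulated data.

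The members, gene lists and tests were chosen with earlier results of these data known. Named are lincRNAs called, the 15 of smallest p, the 10 most abundant, those on the lists of known roles, miRNA hosts and snoRNA hosts, and their nearest protein-coding rows, plus 3 members on each side of the threshold. Hosts found by position were added. Alternatives were DESeq2 1.42.0 (size factors with the Wald test, or in the quasi-likelihood fit), the likelihood ratio test, limma-voom (limma 3.58.1), no filter, leaving out each library or all X and Y rows, other member thresholds, and neighbours by gene starts.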

Additional observations from a re-analysis of the deposited data

How the results depend on the processing

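No paired analysis was possible because the groups share no replicate number (2 and 6 in cKO, 4 and 5 in WT). The count of 1 lincRNA called stayed 1 with DESeq2, its size factors, the likelihood ratio test, limma-voom, without X and Y rows, and with members from 100 counts (of 108). It was 0 with no filter, with a mean of 150 counts (of 71) and from 300 counts (of 46), and 0 to 5 without 1 library. By a mean of 150 counts or from 300 counts, D930028M14Rik (12 and 11 counts in cKO, 110 and 163 in WT) was no longer a member. The causes of the other changes were not tested. Called neighbours were 1 by DESeq2 and by the likelihood ratio test (Zfhx3) and 0 to 1 without 1 library. Called marker genes, 6 as reported, were 12 by DESeq2, 16 by the likelihood ratio test, 1 with no filter and 0 to 35 without 1 library. Calls in other noncoding classes, 3 as reported, were 5, 13, 0 and 0 to 19 in the same order, and partner genes 0 to 1 without 1 library. Over all genes DESeq2 called 81 and the likelihood ratio test 148 of 15804, against 32.

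Of 360 log2 fold changes of named lincRNAs under an alternative, 326 kept direction and side of the threshold, 9 gained a call, 2 lost it (both D930028M14Rik) and 23 changed sign. Sign changed without 1 library for Miat (-0.28 to 0.0012), Gm42047 (-0.053 to 0.25), C130071C03Rik (-0.14 to 0.18), Mir9-3hg (-0.11 to 0.21), Snhg12 (-0.11 to 0.41), Snhg6 (-0.20 to 0.085), Mir17hg (-0.18 to 0.43), 1700020I14Rik (-0.13 to 0.14), 6720427I07Rik (-0.069 to 0.37), RMST_1 (-0.64 to 0.91), C78859 (-0.20 to 0.35) and Gm35394 (-0.66 to 0.56). It also changed for 1700020I14Rik with DESeq2 and its size factors (0.0097 each), limma-voom (0.0033) and no filter (0.011), and for Gm35394 with limma-voom (-0.032). What limited the number of calls, depth or the spread of 2 libraries per group, was not tested.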
